A study of Caenorhabditis elegans with 6 samples.

Results

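The 345 small nucleolar RNA (snoRNA) genes of Caenorhabditis elegans were followed through precipitates of WAGO-4, a germline Argonaute protein that binds small RNAs. They are all the genes that the deposited count tables class as snoRNA, 345 of 45510 genes, with the counts of each gene's transcripts summed. The choice of these genes used the class of the gene and none of its values. K07C10.2, however, was named beforehand as a member with antisense reads. In short, 3 things were seen. Most snoRNA reads had the sequence of the snoRNA itself (sense reads). The reads complementary to snoRNAs (antisense reads) came mainly from a handful of genes that had almost no sense reads. One of these, K07C10.2, had, relative to all antisense reads, 2.91 times as many in animals on oma-1 double-stranded RNA (dsRNA) and 3.93 times as many in their F1 progeny as in animals on the HT115 bacteria without that dsRNA. In the F3 descendants the ratio was 1.94. These reads cannot be tied to K07C10.2 alone, because all of it lies opposite another noncoding RNA gene, K07C10.6.

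Small nucleolar RNAs work in the nucleolus as parts of protein complexes that modify other RNAs, chiefly ribosomal RNA. Box C/D snoRNAs guide 2′-O-methylation by fibrillarin, and box H/ACA snoRNAs guide pseudouridylation by dyskerin. Many are cut out of the introns of host genes, often genes for ribosomal proteins. WAGO-4 belongs to the worm-specific Argonautes that bind small RNAs made by RNA-dependent RNA polymerases on a target transcript. Such small RNAs are antisense to their target, so antisense and sense reads were kept apart.

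There were 6 libraries, 1 per group, all of young adults at 20 °C carrying 3xFLAG::GFP::WAGO-4, precipitated with the anti-FLAG M2 antibody and restricted to RNAs of 17 to 30 nt. The groups were animals given lin-15b(RNAi) and a first untreated library, and animals on oma-1 dsRNA (P0), their F1 and F3 descendants and animals on HT115, the bacterial strain used to feed dsRNA. No input library and no precipitate from untagged animals was analysed here, so whether a level exceeds that of the starting RNA cannot be read from these libraries. The growth notes differ between libraries. Those of P0 and HT115 speak of embryos held at several temperatures, those of F1 and F3 of larvae released without food, and that of F3 of embryos given ultraviolet light. These treatments and the generation cannot be told apart.

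Each group has a single library, so no difference could be set against a spread between replicates and no test was made; the 95% intervals below cover counting error only. The libraries held 8667735 to 11309227 reads assigned to genes. Levels are counts per 1000000 reads (CPM). The yolk protein genes vit-2, vit-5 and vit-6, made by adults, were present in every library at 1284 CPM or more, and the labels were checked against the dsRNA targets. The antisense level of oma-1 was 1439.9 CPM in P0, 317 in F1 and 197 in F3, compared with 96.5 on HT115, and the level of lin-15B on both strands was 1250.3 CPM after lin-15b RNAi, against 188 in the first untreated library. Antisense reads were 69.98% of the library after lin-15b RNAi. They were 69.6%, 55.6% and 72.5% of the P0, F1 and F3 libraries, against 77.8% on HT115. The table of the first untreated library has a single column, read here as the sum of both strands; the labels do not say so, and all comparisons with that library rest on it. Antisense CPM are taken over the antisense reads of a library, and sense and both-strand CPM over the reads of both strands.

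Sense reads dominated the class. They were 89.6% of snoRNA reads after lin-15b RNAi (95% Wilson interval 89.4 to 89.8), 82.8% in P0, 87.6% in F1 and 80.9% in F3, compared with 76.0% on HT115 (75.6 to 76.5). On HT115 the share was 96.2% for small nuclear RNA genes, 92.2% for transfer RNA genes, 87.5% for ribosomal RNA genes and 99.6% for microRNA genes, all above that of the snoRNA genes. After lin-15b RNAi it was 95.8%, 94.0%, 80.7% and 99.7% for the same classes, so ribosomal RNA then lay below the snoRNA genes. Protein-coding genes had the opposite make-up, with 16.7% sense reads on HT115.

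**Figure D1:**
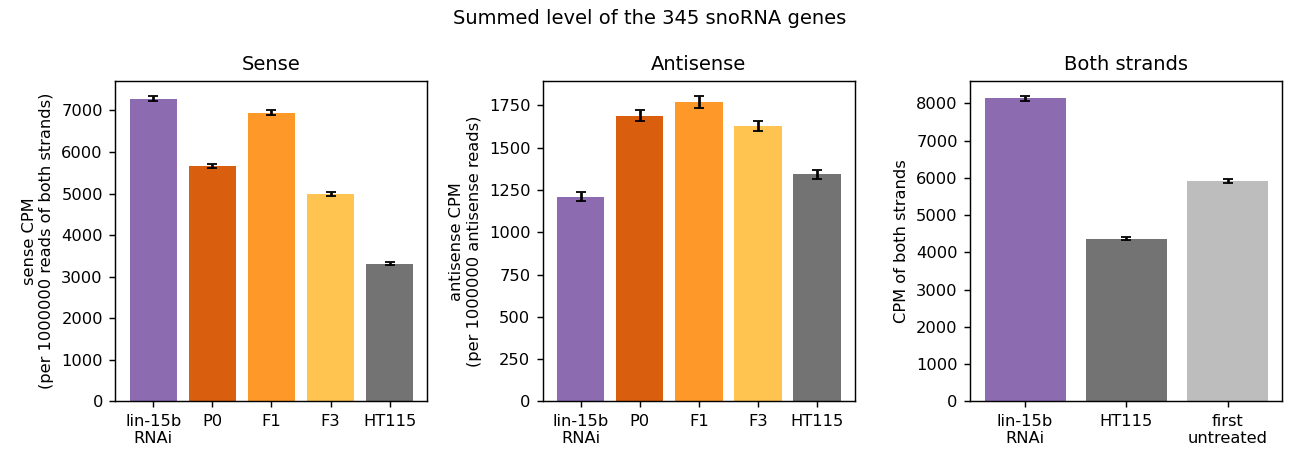
Summed levels of the 345 snoRNA genes in each library, with sense CPM on the left, antisense CPM in the middle and CPM of both strands on the right; bars are single libraries and error bars 95% Poisson intervals. The sense sum of HT115, 3316 CPM, lies below those of the 4 other stranded libraries, and the antisense sums span 1209.8 to 1769 CPM.

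Few of the genes carried many reads. On HT115, 210 of the 345 genes had at least 1 sense read and 60 reached 10 CPM, while 184 had an antisense read and 21 reached 10 CPM. Over the 5 libraries with separate strands, 83 genes had no sense read, 111 had no antisense read, and 52 had no read in any library, the first untreated one included. The median sense level per kilobase of gene was 0 to 1.88 CPM per kb in the 5 libraries. The highest was 27631 CPM per kb, for ZK265.10 after lin-15b RNAi.

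The sense and the antisense reads came mainly from different genes. Of 267706 sense reads over the 5 libraries, 54.5% belonged to 10 genes, and of 49650 antisense reads, 77.5% belonged to 10 genes. No gene was in both of these lists, but just below them the strands shared some genes. Y74C9A.6, with the most sense reads, also had 76 to 287 antisense reads in each library. ZK185.9 was 12th by sense and 18th by antisense reads. Among the 164 genes with 50 or more reads, 113 were over 90% sense and 21 over 90% antisense, and 30 lay between. Antisense reads therefore did not mirror the abundance of sense reads gene by gene, as the scatter of all members shows.

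**Figure D2:**
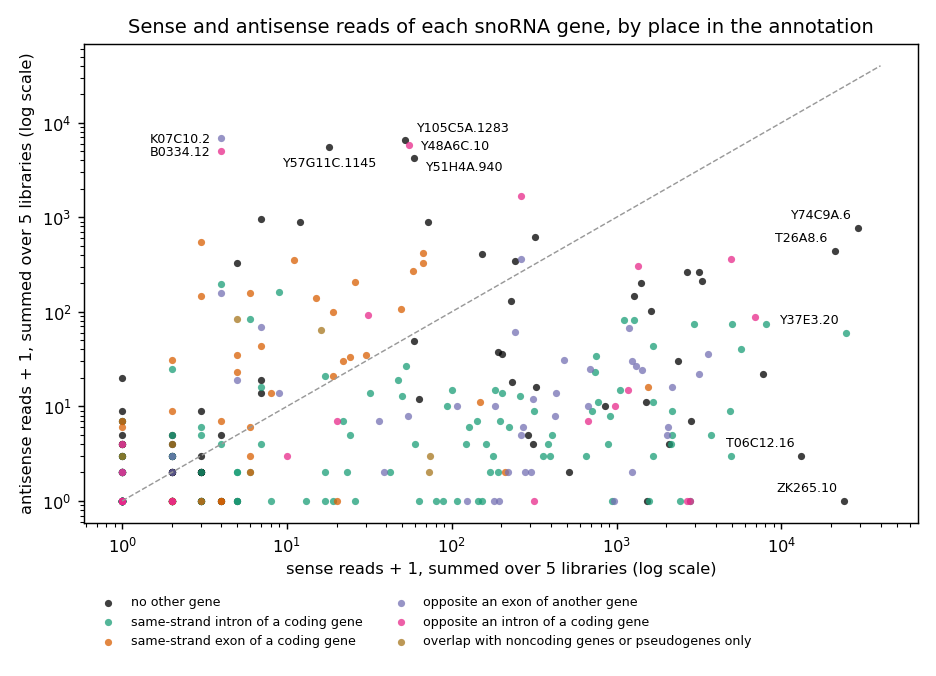
Sense reads (x axis) and antisense reads (y axis) of each of the 345 snoRNA genes, summed over the 5 libraries with separate strands, each with 1 added, on log scales; colours give the place of the gene in the annotation and the dashed line marks equal numbers. The 6 labelled genes at the upper left hold 68.6% of the antisense reads, and the 5 labelled genes at the lower right hold 42.0% of the sense reads.

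Strand make-up was then read by the place of the gene. The annotation used here, Ensembl release 115 of WBcel235, holds all 345 genes; the build behind the authors' tables is not stated in the labels. Each gene was given a single place, the first that held in a fixed order. Same-strand exons of coding genes came first, then exons of any other gene on the opposite strand. Same-strand introns of coding genes, opposite introns and overlap with only noncoding genes or pseudogenes followed. Some genes counted as opposite an exon thus also lie in a same-strand intron, such as C10C6.8 in catp-8. The 122 genes placed in a same-strand intron of a coding gene had only 1.48% antisense reads (1.40 to 1.55). The 41 genes that overlap an exon of a coding gene on the same strand had 56.3% antisense reads (55.0 to 57.6). The 108 genes that overlap no other gene had 16.1%, and 12.1% without Y105C5A.1283. The 45 genes opposite an exon of another gene had 23.3%, but 3.86% without K07C10.2. The 23 opposite an intron had 37.7%, but 10.4% without Y48A6C.10 and B0334.12, and the 6 that overlap only noncoding genes or pseudogenes had 48.1% of few reads. Counted by gene, among those with 50 or more reads, antisense reads outnumbered sense reads in 3 of 60 genes in same-strand introns and 14 of 17 in same-strand exons. They did so in 10 of 37 genes that overlap no other gene, 4 of 33 opposite an exon and 4 of 13 opposite an intron. Within exons, the reads may belong to the overlapping gene as well, and reads shared by both names cannot be assigned to one of them.

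The genes led by antisense reads were spread over these places. Of the 21 genes over 90% antisense, 7 overlapped no other gene, 5 lay in a same-strand exon, 3 in a same-strand intron, 3 opposite an exon, 2 opposite an intron and 1 among noncoding genes. By chromosome, the 59 genes on chromosome IV held 43.4% of the antisense reads and the 71 on II held 28.7%. The 74 genes on chromosome I held 36.7% of the sense reads but 6.34% of the antisense reads, and the 33 on X held 0.703% of the sense reads. Each of these shares rests on a few abundant genes. The genes were 54 to 344 bases long, with a median of 130.

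K07C10.2 had the most antisense reads of the class, 6906 over the 5 libraries, beside 3 sense reads. This gene (WBGene00014425) spans II:11167217-11167303 on the plus strand, 87 bases. Its antisense level was 307 CPM in P0 (292.9 to 321), 415 in F1 (398 to 432) and 205 in F3 (195 to 215), against 106 on HT115 (98.2 to 113); after lin-15b RNAi it was 78.4. F1 was the highest of the 5 libraries and these intervals of P0, F1, F3 and HT115 do not overlap. The ratio to HT115 was 2.91 in P0 (2.67 to 3.16), 3.93 in F1 (3.62 to 4.27) and 1.94 in F3 (1.78 to 2.12). These values depend on the antisense total, which is a smaller part of the F1 library. On both strands, over all reads, the gene had 214 CPM in P0 (204 to 224) and 231 in F1 (221 to 241), intervals that overlap. By that total it had 149 in F3 (141 to 156), compared with 82.2 on HT115 (76.5 to 88.2). In the first untreated library the gene had 246 reads on both strands, 21.8 CPM, against which the 54.9 CPM after lin-15b RNAi were 2.52-fold higher (2.16 to 2.95).

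These reads cannot be tied to the snoRNA alone. All 87 bases of K07C10.2 lie opposite K07C10.6, a noncoding RNA gene at II:11167189-11167304 on the minus strand. The sense reads counted for K07C10.6 numbered 1716 in P0, 2256 in F1 and 1555 in F3, compared with 765 on HT115, close to the 1850, 2261, 1497 and 780 antisense reads of K07C10.2. In 3 of the 5 libraries the longer gene had fewer reads than the shorter one inside it, so not every read was counted under both names. The antisense reads of K07C10.6, which have the sense of K07C10.2, numbered 434 in P0, 475 in F1 and 447 in F3, compared with 516 on HT115, yet K07C10.2 itself had at most 1 sense read in each of these libraries. With the antisense reads of K07C10.2 and the sense reads of K07C10.6 summed and set over the reads of both strands, the log2 ratio to HT115 was 1.34 in P0, 1.50 in F1 and 0.90 in F3.

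The order of these 4 libraries for K07C10.2, F1 above P0 above F3 above HT115, was also that of the summed sense level of the class, 6945 CPM in F1, 5667 in P0 and 4993 in F3, compared with 3316 on HT115. The fifth library did not follow it: after lin-15b RNAi the sense sum was the highest of the 5, 7284 CPM, and the antisense level of K07C10.2 the lowest. The genes whose antisense levels followed K07C10.2 most closely over the 5 libraries, among 4907 genes that reached 25 CPM, were sdc-3, a dosage compensation and sex determination gene (Pearson r of log2 levels 0.986), math-44, a MATH domain gene (0.975), and Y105E8A.20 (0.973). All 3 varied less: sdc-3 had 114 CPM in P0, 127 in F1 and 108 in F3, compared with 94.7 on HT115. Each r rests on the same 5 libraries and is a description.

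The other abundant antisense members were steadier across the oma-1 libraries. Y105C5A.1283 (IV:15649207-15649360, minus strand) overlaps no other gene and had 188 antisense CPM in P0, 164 in F1 and 200.5 in F3, compared with 136 on HT115. Y48A6C.10, which lies opposite an intron of sup-35, had 227 in P0, 216 in F1 and 226 in F3, compared with 194 on HT115. Y57G11C.1145, which overlaps no other gene, had 140.1 in P0, 201 in F1 and 173 in F3, compared with 186 on HT115. Their ratios to HT115 lay between 0.752 and 1.48.

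B0334.12 came closest to K07C10.2 in its shift. It lies at II:11484683-11484752, on the plus strand, opposite an intron of twk-5, a potassium channel gene that itself had at most 20 reads on either strand in any stranded library. Its antisense level was 195 CPM in P0, 228 in F1 and 235 in F3, compared with 120.4 on HT115, ratios of 1.62 (1.48 to 1.77), 1.89 (1.73 to 2.06) and 1.95 (1.80 to 2.12). All 3 generations were higher than HT115 and none reached 2-fold, though in F3 the log2 ratio of 0.96 became 1.05 with median-of-ratios scaling and 1.07 with TMM scaling, past 2-fold.

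**Figure D3:**
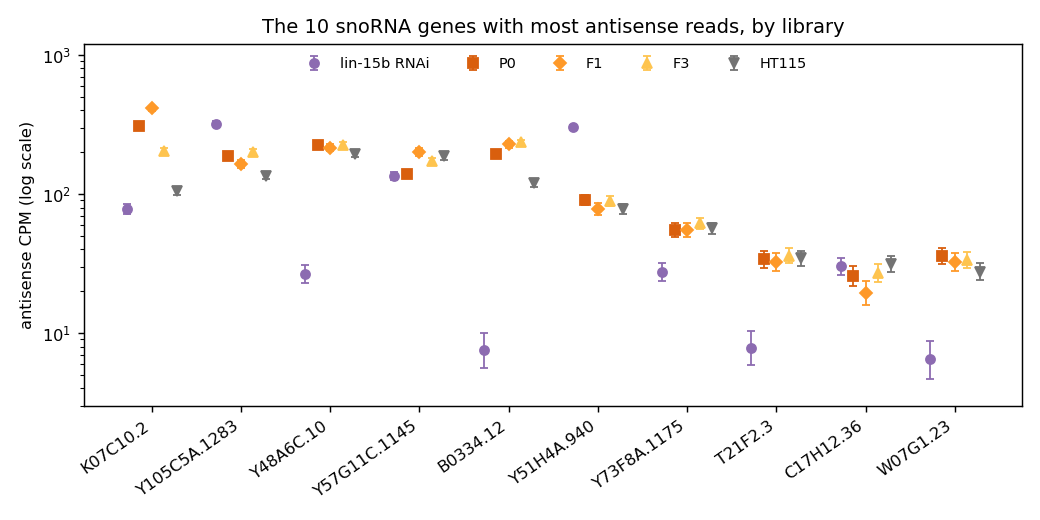
Antisense CPM (log scale) of the 10 snoRNA genes with most antisense reads, in 5 libraries; points are single libraries and bars 95% Poisson intervals. K07C10.2 spreads from 78.4 to 415 CPM, while most of the others differ little between P0, F1, F3 and HT115 and stand apart after lin-15b RNAi.

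Over the class, the antisense sum was 1689 CPM in P0, 1769 in F1 and 1629.6 in F3, compared with 1342 on HT115. The ratio was 1.26 in P0 (1.22 to 1.29), 1.32 in F1 (1.28 to 1.36) and 1.21 in F3 (1.18 to 1.25). Without K07C10.2 the log2 ratio was 0.16, 0.13 and 0.20 in the same order, against 0.33, 0.40 and 0.28 with it. Over the reads of both strands instead of the antisense reads, the F1 value was -0.09. The 108 genes that overlap no other gene gave 0.06, 0.00 and 0.10. The size of the class difference thus depended on the chosen total and on K07C10.2, on the latter least in F3. Other members were also higher in F3 than on HT115. B0334.12 had 235 CPM in F3 and 120.4 on HT115, and Y105C5A.1283 200.5 and 136, beside 205 and 106 for K07C10.2.

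A gene was taken as measured where it reached 10 CPM in the higher library of a comparison, and as different where its level differed at least 2-fold. On the antisense strand 1 of 23 measured members, K07C10.2, was higher in P0 than on HT115, where 0.725% of all 7037 measured genes were. In F1 it was again 1 of 21, against a background of 1.75%, and in F3 it was 0 of 21, against 0.676%. With median-of-ratios scaling 2 of 21 were higher in F3, K07C10.2 at a log2 ratio of 1.04 and B0334.12 at 1.05, against a background of 0.978%. No measured member was 2-fold lower in any generation; the share of all genes that was lower came to 0.298% in P0, 1.2% in F1 and 1.9% in F3. Among the measured members the median log2 ratio was 0.22 in P0, -0.08 in F1 and 0.12 in F3, beside 0.02, -0.04 and -0.02 for all measured genes.

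The sense reads were led by 5 genes. Y74C9A.6 (I:3747-3909, minus strand, no other gene) had 654 CPM in P0, 667 in F1 and 403 in F3, compared with 307 on HT115. Y37E3.20, in an intron of pcyt-2.1, had 418 in P0, 501 in F1 and 750.5 in F3, compared with 463 on HT115. T26A8.6, which overlaps no other gene, had 470.1 in P0, 607 in F1 and 269 in F3, compared with 220 on HT115. The genes did not share an order of these 4 libraries: Y74C9A.6 and T26A8.6 were highest in F1, and Y37E3.20 in F3. After lin-15b RNAi the levels were 1070 CPM for Y74C9A.6 and 670 for T26A8.6, above F1 for both, and 439 for Y37E3.20.

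The 2 shortest of these 5 genes stood out mainly after lin-15b RNAi. ZK265.10, 62 bases long, had 261 CPM in P0, 258 in F1 and 192 in F3, compared with 122 on HT115. T06C12.16, 72 bases long, had 87.5 in P0, 69.4 in F1 and 114 in F3, compared with 101 on HT115, so that F1 was lower at 0.688-fold (0.623 to 0.760). After lin-15b RNAi the levels were 1713 CPM for ZK265.10 and 1026 CPM for T06C12.16, far above those of the other 4 stranded libraries. ZK265.10 had 0 antisense reads and T06C12.16 had 2 in all 5 libraries.

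As a class, the sense level was higher in all 3 generations than on HT115, by 1.71-fold in P0 (1.68 to 1.73), 2.09-fold in F1 (2.07 to 2.12) and 1.51-fold in F3 (1.48 to 1.53). Sense reads of most other classes were also higher in F1. The ratio was 2.09 for protein-coding genes, 1.90 for ribosomal RNA genes, 1.79 for transfer RNA genes and 1.73 for small nuclear RNA genes. It was 0.974 for microRNA genes and 0.413 for Piwi-interacting RNA genes, the latter from 1333 reads against 3134. Sense reads are a larger part of the F1 library as a whole, and over the sense reads alone the log2 ratio of the snoRNA genes was 0.32 in P0, 0.07 in F1 and 0.28 in F3, in place of 0.77, 1.07 and 0.59. The direction held on either total. The yolk protein gene vit-6, a mark of adult animals, had 5372 CPM in P0, 7839 in F1 and 3655 in F3, compared with 4355 on HT115, and was likewise highest in F1; its part in the sense difference was not tested.

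Gene by gene, 32 of 72 measured members were at least 2-fold higher in sense level in P0 (5.79% of all 4735 measured genes), 51 of 75 in F1 (65.3% of all genes) and 19 of 68 in F3 (6.18%). The F1 count is near the background. With median-of-ratios scaling the counts were 10, 14 and 7, where 0.444%, 1.41% and 3.37% of all genes were higher. At least 2-fold lower were 0 members in P0 (0.211% of all genes), 1 in F1, smy-2 (0.326%), and 0 in F3 (0.664%). The median log2 ratio was 0.83 in P0, 1.21 in F1 and 0.69 in F3 among members, beside 0.60, 1.11 and 0.38 among all genes. Measured from the median of all genes, 3 members in P0, 7 in F1 and 3 in F3 remained 2-fold higher, where 0.148%, 0.452% and 2.61% of all genes did. By the same measure 1 member in P0, 6 in F1 and 0 in F3 were 2-fold lower, where 1.44%, 3.78% and 1.6% of all genes were. In F1 the members past 2-fold from that median were thus 7 above and 6 below it. At any distance, 43 of the 75 members measured in F1 lay above it. The 3 comparisons share the HT115 library.

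**Figure D4:**
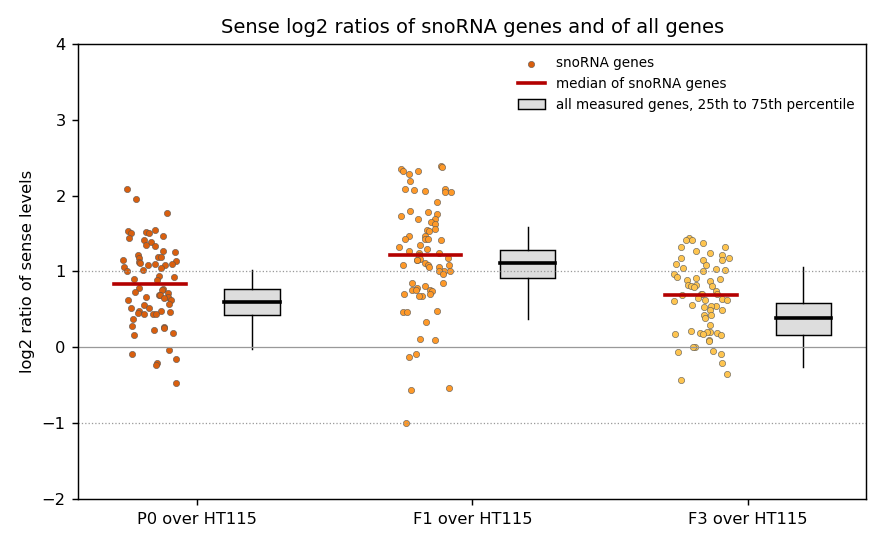
Log2 ratio of the sense level to HT115 for the measured snoRNA genes in P0, F1 and F3 (points, with their median in red), beside all measured genes (box from the 25th to the 75th percentile with the median, whiskers from the 5th to the 95th). Dotted lines mark 2-fold. The members' medians of 0.83, 1.21 and 0.69 lie above those of all genes, 0.60, 1.11 and 0.38, and the members spread more widely than the boxes.

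The members furthest above HT115 were few and of moderate level. F30H5.4 (III:502804-502889, plus strand, no other gene) had 192 CPM in P0, 339 in F1 and 177 in F3, compared with 66.2 on HT115, ratios of 2.90, 5.12 and 2.67. C05H8.3, opposite an intron of ckk-1, a calcium and calmodulin dependent kinase kinase gene, had 243 in P0, 276 in F1 and 132 in F3, compared with 56.8 on HT115, ratios of 4.27, 4.86 and 2.32. ZK484.9, opposite an intron of the transporter gene haf-9, had 89.6 in P0, 116 in F1 and 49.7 in F3, compared with 23.2 on HT115. For each of these genes F1 was the highest and HT115 the lowest of the 4 libraries; F1 was the highest for 46 of 66 members and 3812 of 4179 genes measured in all 3 comparisons, so a peak in F1 was common to most genes.

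T27A3.9 had 721 sense reads in F1, against 133 on HT115, a ratio of 5.26 (4.37 to 6.38), and T10B9.11 had 358, against 69, a ratio of 5.03 (3.88 to 6.61). Y71D11A.7 had 836 in F1, against 155 on HT115, 5.23-fold (4.40 to 6.25). In F3 the highest ratios were those of Y55F3BR.9, 2.73 (2.27 to 3.30), and F47G4.9, 2.67 (2.25 to 3.18), and in P0 K11H12.12, in an intron of the ribosomal protein gene rpl-15, reached 3.46 (2.39 to 5.09) from 123 reads, against 39 on HT115. At the other end, smy-2 had 103 sense reads in F1, against 201 on HT115, 0.497-fold (0.388 to 0.633). It had 156 in P0 and 201 in F3.

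Summed sense ratios differed with the place of the gene, more in P0 and F1 than in F3. The summed sense level of the 108 genes that overlap no other gene was 2.01-fold that of HT115 in P0 (1.97 to 2.06), 2.41-fold in F1 and 1.39-fold in F3. For the 122 genes in same-strand introns it was 1.40-fold in P0 (1.37 to 1.43), 1.74-fold in F1 and 1.56-fold in F3. In P0 the genes opposite an exon were at 1.64-fold, those in same-strand exons at 1.95-fold and those opposite an intron at 2.08-fold. Y37E3.20 alone held 4401 of the 13828 intronic sense reads on HT115, and no sum without it was computed. Y74C9A.6, ZK265.10, T26A8.6 and T06C12.16 are among the genes that overlap no other gene. The median log2 ratio of measured genes without overlap was 1.10 in P0, 1.35 in F1 and 0.55 in F3. Among intronic genes it was 0.69, 1.15 and 0.70.

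Intronic snoRNA genes stood apart from their hosts on the antisense strand. The median host had 56.7 to 74.0 antisense CPM per kilobase of exon in the 5 libraries, and the median intronic snoRNA gene had 0 in each. The host was the higher in 111 to 114 of the 122 pairs. This was not particular to introns: for the 41 genes in same-strand exons the host was the higher in 29 to 34 pairs. Their medians on HT115 were 2.90 antisense CPM per kb for the snoRNA genes and 26.2 for the hosts. H06I04.8, in an intron of ubl-1, a ubiquitin-like fusion gene for a ribosomal protein, had 0 antisense reads in every stranded library, beside 562 to 802 sense reads in P0, F1, F3 and HT115. Its host had 422 antisense CPM per kb in P0, 526 in F1 and 412 in F3, compared with 506 on HT115.

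H06I04.9, the other snoRNA gene in an intron of ubl-1, had 5 antisense reads in P0, 4 in F1 and 4 in F3, compared with 5 on HT115, and at most 1 sense read in any of the 5 libraries. These reads are far below the 10 CPM at which a gene was taken as measured, so its strand make-up was not resolved. C16A3.11, in rps-13, had 2 antisense reads in P0, 1 in F1 and 3 in F3, compared with 2 on HT115, and F54C9.12, in the translation factor gene iff-2, had 0 in each; their hosts had 245 to 1217 in these libraries. H06I04.8, H06I04.9, C16A3.11, F54C9.12 and F33E11.7 were chosen as examples after their values were seen. F33E11.7, in an intron of the nuclear receptor gene nhr-15, was among the exceptions, with 51.3 antisense CPM per kb in P0, 85.1 in F1 and 91.7 in F3, compared with 75.3 on HT115, where nhr-15 itself had 79.6, 74.4, 72.8 and 76.9. After lin-15b RNAi the 2 were far apart, with 4.68 for F33E11.7, from 3 reads, and 91.3 for nhr-15.

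**Figure D5:**
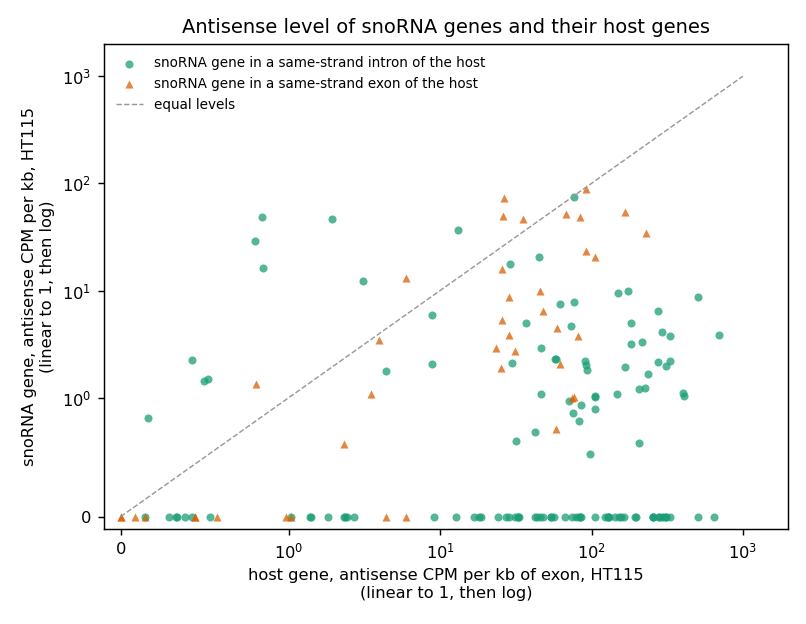
Antisense CPM per kilobase on HT115 for snoRNA genes (y axis) and the coding genes that hold them on the same strand (x axis, per kilobase of exon), on axes that are linear to 1 and logarithmic beyond; circles lie in introns, triangles in exons, and the dashed line marks equal levels. Most intronic genes lie at 0 or far below the line, with 63 of 122 at 0, while genes in exons lie nearer to it, with the host still higher in 34 of 41 pairs.

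Genes that act with snoRNAs also carried antisense reads. Of 18 listed genes for snoRNA protein complexes and the nucleolus, 13 were matched in the tables, and all 13 were measured on the antisense strand. None was 2-fold higher or lower in P0, F1 or F3; with at most 1.9% of all genes past 2-fold in either direction in any generation, a count of 0 of 13 is near the background. The median log2 ratio was -0.08, -0.06 and -0.07. The furthest from 0 was nola-3, a box H/ACA core gene, with 17.9 antisense CPM in P0, 11.6 in F1 and 15.2 in F3, compared with 20.7 on HT115, log2 ratios of -0.21, -0.83 and -0.44. The methyltransferase gene fib-1 (fibrillarin) had 513 antisense CPM in P0, 503 in F1 and 480.5 in F3, compared with 514 on HT115. The pseudouridine synthase gene dkc-1 (dyskerin) had 370.2 in P0, 338 in F1 and 336 in F3, compared with 351 on HT115. On the sense strand 11 of 12 measured genes of the list were 2-fold higher in F1, where 65.3% of all genes were, and 0 in P0 and F3.

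After lin-15b RNAi the class had 8131 CPM on both strands, against 5913 in the first untreated library, 1.38-fold higher (1.36 to 1.39). Of 64 measured members, 22 were at least 2-fold higher (7.62% of all genes) and 2 lower (2.6%). The median log2 ratio was 0.58 among members and 0.05 among all measured genes. Small nuclear RNA genes were 1.51-fold higher, ribosomal RNA genes 1.56-fold and microRNA genes 1.60-fold in the same comparison.

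Among the members with many reads, T06C12.16 had 9688 reads after lin-15b RNAi, against 4462 in the first untreated library, 2.60-fold (2.51 to 2.70), and ZK265.10 had 16171, against 9588, 2.02-fold (1.97 to 2.07). T26A8.6 went the other way, with 6455 reads, against 13809, 0.560-fold (0.544 to 0.577). The highest ratios were those of F12F6.11, with 430 reads against 88, 5.85-fold (4.64 to 7.45), and F19H8.6, with 426 against 108, 4.73-fold (3.82 to 5.89). M163.14 was lowest, with 26 reads after lin-15b RNAi, against 234 in the first untreated library, 0.133-fold (0.0852 to 0.200). R166.7 followed at 0.435-fold, with 90 reads against 248.

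The libraries without RNAi also differed from each other. HT115 and the first untreated library were made from animals with different growth notes, and their tables differ in length and columns. The class sum was 4413.5 CPM on HT115, against 5913 in the first untreated library, 0.746-fold (0.737 to 0.756), over the genes in both tables. Of 83 measured members, 45 were at least 2-fold higher (21.5% of all genes) and 14 lower (9.5%), so most measured members were higher while the sum was lower. The median log2 ratio was 1.06 among members and 0.36 among all genes. Small nuclear RNA genes were 7.31-fold higher on HT115, the largest shift among the 7 gene classes compared.

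The lower sum went with a few abundant genes, here the 5 with the largest difference in CPM. T26A8.6 had 2177 reads on HT115, against 13809 in the first untreated library, ZK265.10 had 1160 against 9588, C27H6.5, in an intron of unc-41, had 420 against 5528, Y74C9A.6 had 3071 against 7860, and T06C12.16 had 960 against 4462. In relative terms T03F7.8 was lowest at 0.0595-fold, with 17 reads against 344, and T10B9.11 followed at 0.0717-fold, with 76 against 1277. The highest were B0334.12, with 890 reads against 47, 22.8-fold (17.0 to 31.3), ZK643.9 at 21.7-fold and ZK484.9 at 18.9-fold, the last pair from 7 and 14 reads in the first untreated library.

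Several of the genes led by antisense reads separated the first pair of libraries from the other 4. B0334.12 had 50 reads after lin-15b RNAi and 47 in the first untreated library, and 890 to 1716 antisense reads in P0, F1, F3 and HT115. Y48A6C.10 had 177 and 266 in the first pair, and 1175 to 1653 antisense reads in the other 4. Y51H4A.940, which overlaps no other gene, did the reverse, with 1996 and 2178 reads in the first pair and 425 to 653 antisense reads in the others. Y105C5A.1283 was likewise higher in the first pair, by less, at 225 and 164 CPM on both strands, where the other 4 libraries had 92.2 to 147. Y57G11C.1145 showed no such split: it had 95.9 and 134 CPM on both strands in the first pair and 97.8 to 145 in the others.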

How the data were processed

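Each deposited table holds read counts per transcript, as the authors made them. Per the submitters' processing notes Bowtie2 did the alignment. For its version, the build and the counter, nothing is given in the sources used here. Counts were summed per gene. Strand was judged from microRNAs, of which 0.202% to 0.417% of reads fell in the column taken as antisense. The 3 lines per table without a gene held at most 0.000296% of reads and were left out. Places and hosts come from Ensembl release 115 of WBcel235. Log2 ratios have 0.5 added to each count; ratios without log2 are plain. Intervals are exact Poisson (levels), exact conditional binomial (ratios) and Wilson (shares), at 95%. Only the ratio intervals were tried on simulated data, Poisson counts that hold no spread between libraries. The labels mention no molecular identifiers, so each read was taken as a molecule. Alternatives were TMM (edgeR 4.0.16, R 4.3.3) and median-of-ratios scaling, other totals, minimum levels and pseudocounts; other values were computed with Python 3.11.15, numpy 2.4.6 and scipy 1.17.1. Named genes are K07C10.2, the 10 members with most antisense and most sense reads, up to 5 measured members past 2-fold per direction and comparison, the listed snoRNA protein genes, overlapping genes and the 3 nearest patterns. The members, lists and rules were chosen with earlier results of these data known. The 5 names susi-1 to susi-5 of the list were not matched.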

Additional observations from a re-analysis of the deposited data

How the results depend on the processing

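No paired analysis was possible because each group has 1 library. Log2 ratios of the class sums to HT115 in P0, F1 and F3 follow in that order. The antisense sum was 0.33, 0.40 and 0.28; over the reads of both strands it was 0.17, -0.086 and 0.18, without K07C10.2 0.16, 0.13 and 0.20, over members that overlap no other gene (chosen after seeing the data) 0.065, 0.00088 and 0.096, and in F1 and F3 with median-of-ratios factors 0.47 and 0.37 and with TMM 0.45 and 0.39. The sense sum was 0.77, 1.07 and 0.59; over sense reads it was 0.32, 0.067 and 0.28, with median-of-ratios factors 0.36, 0.24 and 0.34, with TMM 0.37, 0.24 and 0.35, and in P0 without Y74C9A.6 0.74. The both-strand sum after lin-15b RNAi against the first untreated library was 0.46, with median-of-ratios factors 0.33, with TMM 0.39 and without ZK265.10 0.34. That of HT115 against the first untreated library was -0.42, in the same order -0.95, -0.91 and -0.24. Sense shares over members that overlap no other gene were 88.4% after lin-15b RNAi, 83.5% for P0, 88.8% for F1 and 76.7% for F3, against 70.1% for HT115.

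Counts of members past 2-fold moved most without a minimum level, where single reads decide: antisense 39, 25 and 33 higher and 45, 64 and 51 lower; sense 75, 117 and 64 higher and 31, 29 and 42 lower; 72 higher and 35 lower after lin-15b RNAi; 169 higher and 38 lower on HT115 against the first untreated library. No share over all genes was computed for this setting, or for the minimum of 25 CPM and the pseudocount of 5 below. Whether those counts differ from other genes therefore cannot be read. With median-of-ratios factors 10, 14 and 7 members were higher in sense level in P0, F1 and F3 (0.444%, 1.41% and 3.37% of all genes). By the same factors 3 were lower in sense level in F1 (2.82%), 2 were higher in antisense level in F3 (0.978%), and 5 were lower after lin-15b RNAi (3.54%). Relative to the median of all genes (chosen after seeing the data) 3, 7 and 3 were higher in sense level (0.148%, 0.452% and 2.61% of all genes). By that measure 1 in P0 and 6 in F1 were lower (1.44% and 3.78%). With a minimum of 25 CPM, 13 were higher and 0 lower after lin-15b RNAi and 22 higher on HT115 against the first untreated library; smy-2 in F1 was not counted there or with a pseudocount of 5, leaving 0. Under median-of-ratios and TMM factors the sense ratio changed sign for T06D8.11 (-0.35 and -0.35) and Y37E3.20 (-0.71 and -0.71) in F1 and for Y24D9A.9 (-0.044 and -0.031) and T06C12.16 (-0.072 and -0.059) in F3. The alternatives change the total or the genes counted; no other cause was tested. Members below 10 CPM were not resolved at this depth.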
